A study of Mus musculus with 10 samples.

Results

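Reelin is a large secreted glycoprotein that tells migrating neurons where to stop. It binds the lipoprotein receptors Vldlr and Lrp8 (also called ApoER2), which cluster and bring the cytoplasmic adaptor Dab1 to kinases of the Src family, mainly Fyn. Phosphorylated Dab1 then recruits the adaptors Crk and Crkl and binds Lis1, the product of Pafah1b1, which regulates the dynein motor. In the midbrain, mice without Reelin or Dab1 are known for misplaced dopaminergic neurons of the substantia nigra. The 8 genes Reln, Dab1, Vldlr, Lrp8, Fyn, Crk, Crkl and Pafah1b1 are described here, of 30935 gene IDs in the table. Reln was selected on its measured values, since it was among the leading higher genes in the deletion group, so its difference between the groups is a description with no test. The other 7 were chosen for their place in the pathway. All 8 passed the filter on low counts, as did 15288 genes in all.

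Midbrains of mouse embryos were sequenced as bulk RNA at embryonic day 14.5, with 5 libraries of Rbfox1 +/+ embryos (wild-type 1, 2, 4, 5 and 6) and 5 of Rbfox1 ΔHAR.321/ΔHAR.321 embryos (deletion 2, 3, 4, 5 and 6). The deletion group is homozygous for loss of HAR.321, a human accelerated region in the Rbfox1 locus, that is, a conserved stretch with many changes specific to humans; the Rbfox1 protein regulates splicing in neurons. The series describes the samples as independent biological samples of each genotype. Strain, sex, litter and the making of the line were not given in the sources used here. Whole-gene counts do not show exon use, so the splice forms of Dab1 and Lrp8 were not analysed here.

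Total counts ran from 16246892 to 20255728 per library, and each of the 8 genes had between 1761 and 10865 counts in every library. Of 12 midbrain markers, all 12 were above the filter, led by Tfap2b at a mean of 713 CPM (counts scaled to the library total with TMM factors). Of 10 genes listed for the adjoining cerebellum and rhombic lip, 6 passed the filter, led by Mab21l1 at a mean of 208 CPM, and Atoh1, Ptf1a, Hoxa2 and Fgf8 did not. The slope of a library's log2 CPM on log2 transcript length ran from -0.061 to -0.010 in the wild-type group. It ran from 0.034 to 0.104 in 4 deletion libraries and was -0.055 in deletion 4.

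The stretch before the start of each gene was read from RefSeq (GRCm38.p6), because Reln is known for a promoter dense in CG pairs, the sites of DNA methylation. A stretch of 250 bases was called CG-rich where its GC content was at least 55% and its CG pairs were at least 0.6 of the number expected from its C and G. Of the 8 genes, 8 had at least one listed start that met both limits and 7 met them at the first listed start. Of 21234 genes of the table, 33.4% met them at their first listed start. Those 21234 were not limited to genes that passed the filter on low counts, as all 8 did. The comparison is thus not like for like, and the share among genes that passed was not computed. Reln and Dab1, ligand and adaptor, had the most CG pairs, 37 and 40 at their first listed starts, where the median over the 21234 genes was 8. Another listed start of Dab1 had 10 CG pairs, 0.545 of the number expected, and did not meet that limit. Which start is used in these samples was not tested. The sequences before the first listed starts of Reln and Dab1 are shown 5′ to 3′ with every CG pair in capitals. They are Reln at chr5:22344706-22344955 on the minus strand and Dab1 at chr4:104367288-104367537 on the plus strand, GRCm38.p6.
Reln: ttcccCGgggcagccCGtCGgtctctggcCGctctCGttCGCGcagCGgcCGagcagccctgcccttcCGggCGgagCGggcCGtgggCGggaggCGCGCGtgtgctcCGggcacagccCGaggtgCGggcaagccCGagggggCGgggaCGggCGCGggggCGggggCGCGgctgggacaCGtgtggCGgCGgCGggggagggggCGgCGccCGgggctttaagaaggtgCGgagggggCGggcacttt
Dab1: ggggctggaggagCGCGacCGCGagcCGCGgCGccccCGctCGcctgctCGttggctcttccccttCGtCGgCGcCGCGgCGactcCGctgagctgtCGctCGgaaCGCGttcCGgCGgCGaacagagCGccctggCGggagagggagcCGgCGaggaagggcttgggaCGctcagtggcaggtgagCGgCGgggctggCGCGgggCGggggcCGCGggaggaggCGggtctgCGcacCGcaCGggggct
Methylation was not measured in this series, and the CG pairs are a description of these sequences only.

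Reln, the ligand, was higher in the deletion group: 192 ± 21.8 CPM against 152 ± 19.9 CPM in the wild-type group (SD, n = 5 each). The wild-type libraries held 164 CPM of Reln in wild-type 1, 179 in wild-type 2, 151 in wild-type 4, 134 in wild-type 5 and 133 in wild-type 6. The deletion libraries held 162 CPM in deletion 2, 180 in deletion 3, 217 in deletion 4, 196 in deletion 5 and 206 in deletion 6. The mean of the wild-type group was exceeded in 5 of 5 deletion libraries and its highest library in 4, while deletion 2 fell inside the wild-type range, so the groups overlapped. The log2 fold change was 0.34 (SE 0.09, 95% interval 0.15 to 0.52), or 1.26-fold. Of all tested genes, 3.66% had a log2 fold change as large or larger. Reln was picked for being high in these same libraries, so this size may be too large. Neither the intervals given for Reln nor this share is a test of it. Since midbrain tissue was measured in bulk, more Reelin-producing cells and more Reln RNA per cell cannot be told apart.

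**Figure D1:**
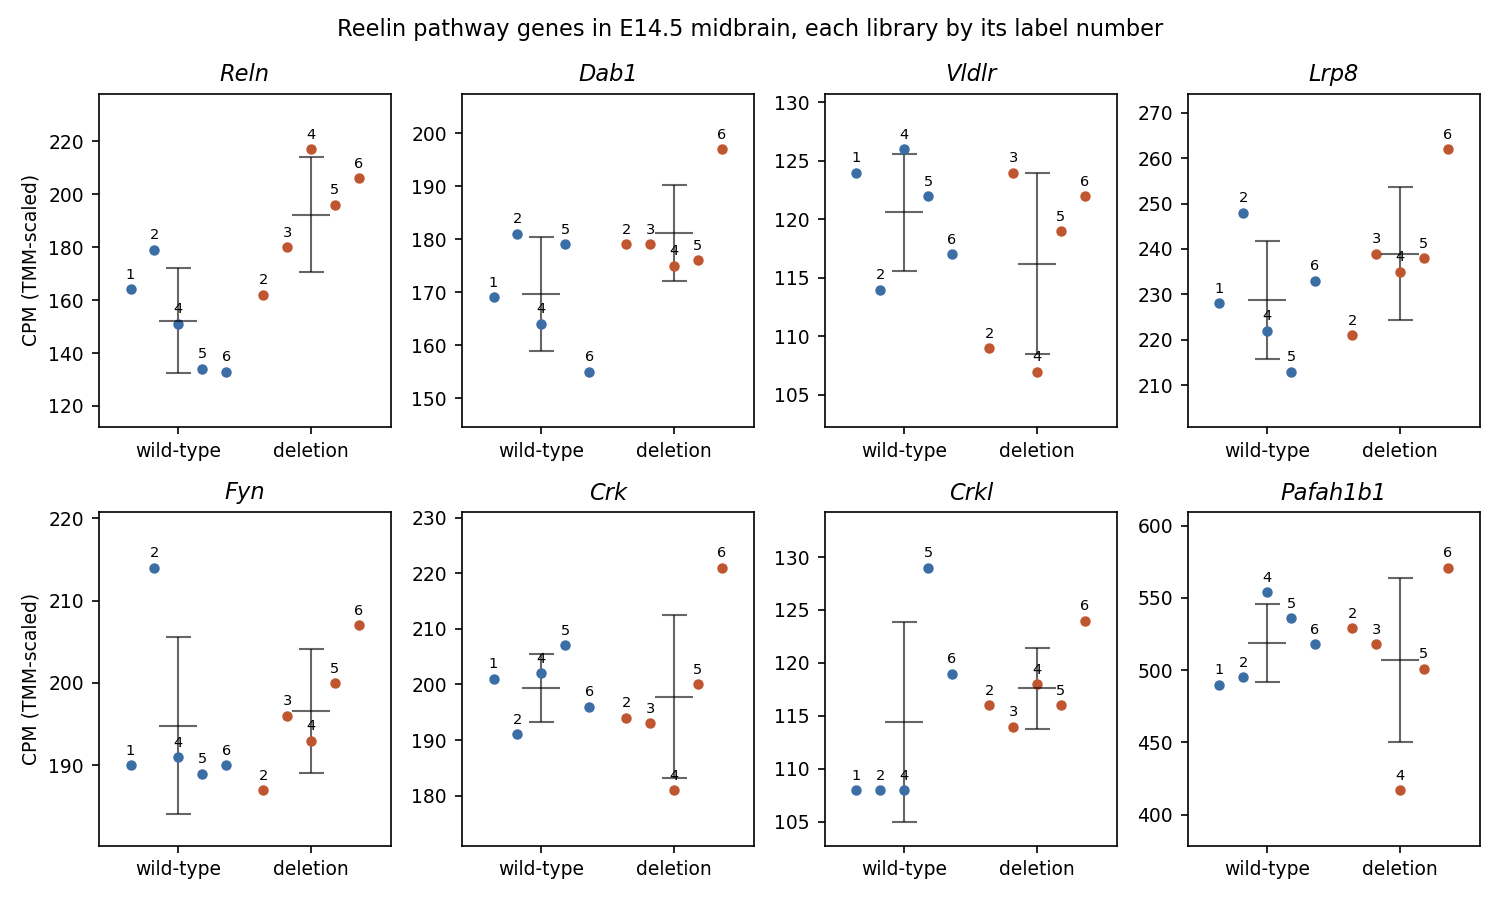
CPM of each of the 8 genes (vertical axes, which do not start at 0) in the wild-type and deletion groups. Each point is a library with its label number, and bars show the mean and SD of 5 libraries. For Reln, 4 deletion libraries stand above every wild-type library, of which deletion 3 only narrowly (180 against 179 CPM in wild-type 2). The groups overlap widely for the other genes.

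The Reln transcript is long, 11.7 kb, and long transcripts in general were higher in the deletion group. Over the 902 tested genes with a transcript above 8 kb the median log2 fold change was 0.09, against -0.00 over all tested genes. With each library's trend on transcript length removed, the log2 fold change of Reln was 0.25 (SE 0.10), and with length and GC trends removed it was 0.21 (SE 0.10, 95% interval -0.01 to 0.43). In that fit Reln ran from 133 to 174 CPM in wild-type libraries and from 155 to 212 CPM in deletion libraries. There 4 deletion libraries lay above every wild-type library, deletion 3 only narrowly, at 175 CPM against at most 174. Before trend removal deletion 3 stood at 180 CPM against 179 in wild-type 2. Deletion 4, whose length slope was in the wild-type range, had the highest Reln level of all 10 libraries both before and after this step. That is a single library, and Reln was selected on these values. Beyond the removal of trends, the part of transcript length in the Reln difference was not tested.

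**Figure D2:**
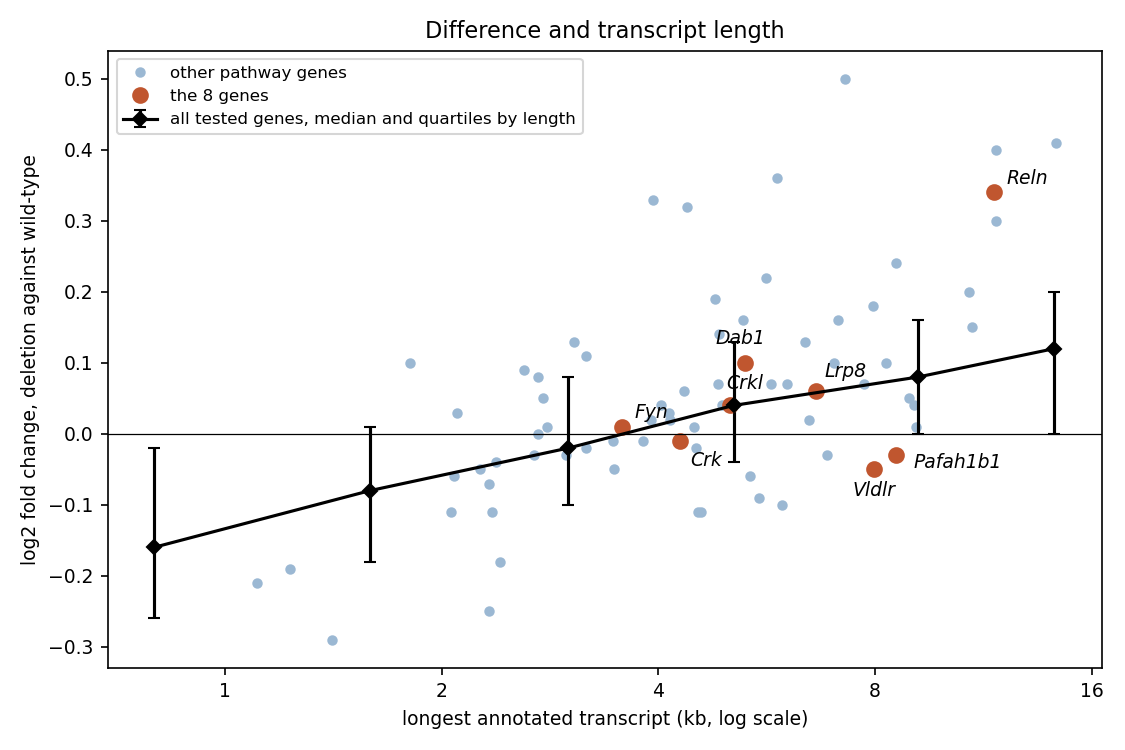
Log2 fold change of deletion against wild-type (vertical axis) against the longest annotated transcript in kb (horizontal log axis). Orange points are the 8 genes, pale points other pathway genes, and black diamonds the median of all tested genes by length class, with quartiles. Reln at 0.34 lies above the upper quartile of 0.16 for genes of 8 to 12 kb, and Vldlr and Pafah1b1 lie below 0. Since Reln was selected on these values, its place above that quartile is no test.

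Cells that make Reelin in the developing brain include Cajal-Retzius cells. Of 10 genes listed as their markers, 9 passed the filter, and 7 of them were higher in the deletion group, where 49.3% of all tested genes were. None passed edgeR's test at an adjusted p of 0.05, where 0.0589% of all tested genes did. An unadjusted p under 0.05 in edgeR was found for 1, against 10.5% of all tested genes. DESeq2 called 0, against 2.85% of the genes to which it gave an adjusted p, and it gave Ndnf none. With so few genes, counts of 0 lie near these shares. The summed level of the 10 listed markers ran from 1048 to 1304 CPM in wild-type libraries and from 1160 to 1301 CPM in deletion libraries. Trp73, the most specific of them, was below the filter, at a mean of 0.0442 CPM (wild-type) and 0.0298 CPM (deletion). The most abundant, the transcription factor gene Ebf3, stood at 540 ± 47.2 and 577 ± 37.6 CPM (SD, n = 5 each). With Trp73 below the filter and Ebf3 the largest part of the sum, that sum is no measure of Cajal-Retzius cells in these samples. The cerebellar and rhombic lip list, a tissue next to the midbrain that is rich in Reln, had a summed level of 544 to 601 CPM (wild-type) and 482 to 608 CPM (deletion). Most of that sum came from Mab21l1, Barhl1 and Zic1, with wild-type means of 216, 153 and 149 CPM. Atoh1, Ptf1a, Hoxa2 and Fgf8 were below the filter, so the sum is no measure of cerebellar tissue in these samples. Neuronal markers summed to between 6810 and 7135 CPM in wild-type and between 6583 and 7194 CPM in deletion libraries. Of 10 neural progenitor markers 8 were lower; their median was -0.10 on the log2 scale, with a summed level of 1225 to 1640 CPM (wild-type) and 1163 to 1677 CPM (deletion). All 7 red blood cell markers above the filter were higher, with a median of 0.15, or 0.30 with length and GC trends removed, and a summed level of 1699 to 2555 CPM (wild-type) and 2234 to 2981 CPM (deletion). In edgeR none of these progenitor or red blood cell markers had an adjusted p under 0.05, against 0.0589% of all tested genes. An unadjusted p under 0.05, which 10.5% of all tested genes had, was found for 1 gene of each list. The part of any of these in the Reln difference was not tested.

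Neither receptor passed the test. Lrp8 held 228, 248, 222, 213 and 233 CPM in wild-type 1, 2, 4, 5 and 6, and 221, 239, 235, 238 and 262 CPM in deletion 2, 3, 4, 5 and 6. Only deletion 6 lay above the highest wild-type library. The log2 fold change of Lrp8 was 0.06 (SE 0.06, 95% interval -0.07 to 0.19) with an adjusted p of 0.787 in the quasi-likelihood test of edgeR (adjusted by Benjamini-Hochberg over all genes). Vldlr held 124, 114, 126, 122 and 117 CPM in wild-type 1, 2, 4, 5 and 6, and 109, 124, 107, 119 and 122 CPM in deletion 2, 3, 4, 5 and 6. Deletion 2 and deletion 4 lay below every wild-type library and the other three deletion libraries lay inside the wild-type range. For Vldlr the log2 fold change was -0.05 (SE 0.06, 95% interval -0.18 to 0.08; edgeR adjusted p = 0.832). With length and GC trends removed it was -0.11 (SE 0.05, 95% interval -0.21 to -0.01), an interval that leaves out 0, and the edgeR p adjusted over all genes was 0.474.

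The 2 receptors share Reelin as a ligand but are known to serve different groups of migrating neurons, so their balance was compared within each library, where library scaling plays no part. The ratio of Vldlr to Lrp8 counts was 0.544, 0.461, 0.566, 0.571 and 0.505 in wild-type 1, 2, 4, 5 and 6. It was 0.496, 0.520, 0.454, 0.501 and 0.465 in deletion 2, 3, 4, 5 and 6. The wild-type mean of 0.528 was above each of the 5 deletion values, yet wild-type 2 was lower than 4 of them. The log2 ratio differed by -0.12, which did not pass an exact two-sided permutation test over 252 assignments (p = 0.119, adjusted p = 0.238 over 2 ratios; the smallest p possible is 0.00794). Wild-type 2 had the lowest ratio of its group. Without wild-type 2 the difference was -0.17, with p = 0.0317 in the same exact permutation test before adjustment. On leaving out any other single library, p in that test ran from 0.0952 to 0.254.

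Dab1, the adaptor whose loss mimics the loss of Reelin, did not pass the test. It held 169, 181, 164, 179 and 155 CPM in wild-type 1, 2, 4, 5 and 6, and 179, 179, 175, 176 and 197 CPM in deletion 2, 3, 4, 5 and 6. Each deletion library was above the mean of the wild-type group, 169 CPM, but only deletion 6 was above its range. The log2 fold change was 0.10 (SE 0.06, 95% interval -0.03 to 0.22; edgeR adjusted p = 0.620). Active signalling is known to lower Dab1 protein through ubiquitination, which RNA counts do not measure.

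Fyn, the kinase that phosphorylates Dab1, stood at 195 ± 10.6 CPM in wild-type and 196 ± 7.29 CPM in deletion libraries (SD, n = 5 per group; log2 fold change 0.01, SE 0.06, 95% interval -0.11 to 0.13, edgeR adjusted p = 0.968). In the wild-type group, wild-type 2 stood at 214 CPM and the others between 189 and 191 CPM. The paired adaptors Crk and Crkl, which can replace each other in the response to Reelin, did not pass either. Crk stood at 199 ± 6.01 and 198 ± 14.7 CPM (log2 fold change -0.01, SE 0.06, edgeR adjusted p = 0.975), with deletion 4 lowest at 181 and deletion 6 highest at 221. Crkl stood at 114 ± 9.33 and 118 ± 4.08 CPM (log2 fold change 0.04, SE 0.06, edgeR adjusted p = 0.884), and every deletion library lay between 114 and 124. Crkl is the one gene of the 8 on chromosome 16, the chromosome of Rbfox1. The ratio of Crkl to Crk counts ran from 0.533 to 0.649 over the 10 libraries, and its log2 value differed by 0.06 between the groups (exact two-sided permutation test, p = 0.349, adjusted p = 0.349 over 2 ratios).

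Pafah1b1, whose protein Lis1 links the pathway to dynein and is lost in human lissencephaly, was the most abundant of the 8. It held 490, 495, 554, 536 and 518 CPM in wild-type 1, 2, 4, 5 and 6, and 529, 518, 417, 501 and 571 CPM in deletion 2, 3, 4, 5 and 6. Deletion 4 was the lowest and deletion 6 the highest of all 10 libraries, so the deletion group held both extremes. The log2 fold change was -0.03 (SE 0.07, 95% interval -0.19 to 0.12; edgeR adjusted p = 0.929). With length and GC trends removed, Pafah1b1 ran from 477 to 512 CPM in the deletion group, against 503 to 548 CPM in the wild-type group, and deletion 4 no longer stood apart.

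None of the 7 genes other than Reln passed edgeR's test at an adjusted p of 0.05, where 9 of 15288 genes (0.0589%) did. None had an unadjusted p under 0.05, against 10.5% of all tested genes, and none had groups that did not overlap, against 2.49%. DESeq2 called none of the 7, against 2.85% of the 8689 genes to which it gave an adjusted p, and limma-voom called none of the 7 either. Their median log2 fold change was 0.01, with 4 higher and 3 lower. With 7 genes, counts of 0 lie near these backgrounds. The intervals limit the size of a difference: for each of the 7 the 95% interval lay between -0.19 and 0.22 on the log2 scale before trend removal, and that of Vldlr reached -0.21 after it.

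**Figure D3:**
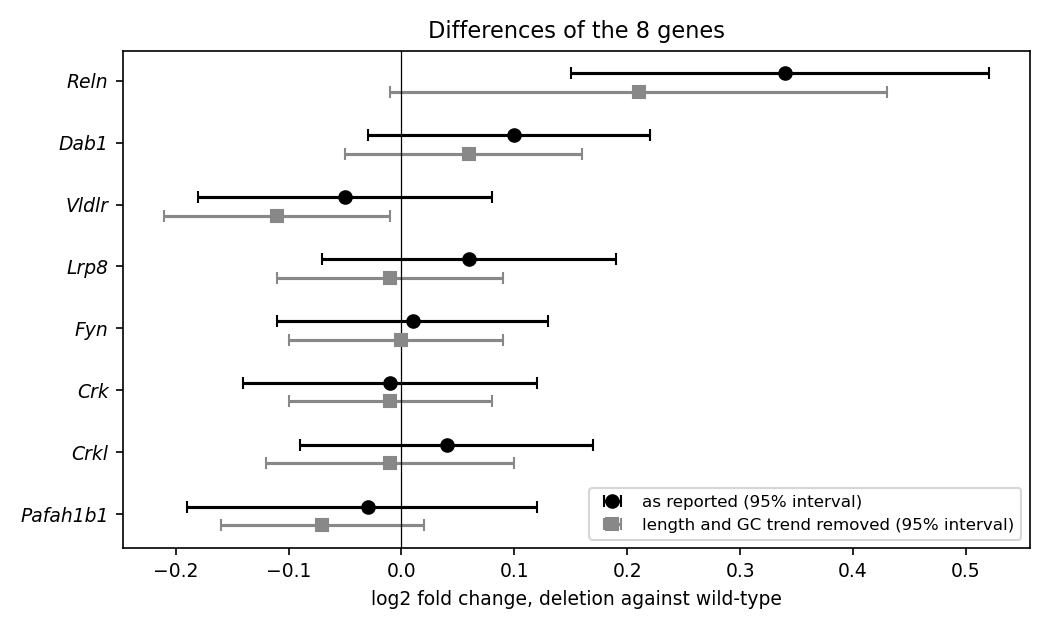
Log2 fold change of deletion against wild-type for each of the 8 genes (horizontal axis), with 95% intervals. Black points are the values as reported and grey squares those with length and GC trends removed. Reln stands at 0.34 and 0.21, and the other 7 lie between -0.11 and 0.10 in both fits. Since Reln was selected on these values, its intervals are no test.

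Single libraries moved several of the genes at once. Deletion 6, which had the steepest length slope, was the highest deletion library for 6 of the 8 genes. With length and GC trends removed it was still the highest for Dab1 (190 CPM), Lrp8 (246), Fyn (209), Crk (216) and Crkl (121). For Pafah1b1 it was then at 506 CPM, below deletion 4 at 512. The part of the slope in these levels was not tested. Deletion 4 was the lowest deletion library for Vldlr, Crk, Dab1 and Pafah1b1 and the highest for Reln. The spread within a group was widest for Reln, with a coefficient of variation of 13.1% (wild-type) and 11.3% (deletion). For the others it ran from 3.01% for Crk in the wild-type to 11.2% for Pafah1b1 in the deletion group.

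Per length, measured as CPM per kb of the longest annotated transcript, Reln was the lowest of the 8 in the wild-type group. The order there ran from Pafah1b1 (60.5 ± 3.17 CPM per kb) and Fyn (54.6 ± 2.98) through Crk (46.5 ± 1.40), Lrp8 (34.5 ± 1.95), Dab1 (32.1 ± 1.99) and Crkl (22.7 ± 1.85) to Vldlr (15.1 ± 0.591) and Reln (13.0 ± 1.70; SD, n = 5). The libraries of neighbours in this order overlapped for Pafah1b1 and Fyn, for Lrp8 and Dab1, and for Vldlr and Reln, and not for the other neighbours. In the deletion group Reln stood at 16.4 ± 1.86 CPM per kb and Vldlr at 14.6 ± 0.972, so their means changed places, and their libraries overlapped there too. The receptor Lrp8 was thus above Vldlr per length in every library.

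Over the 10 libraries, with each group's mean subtracted, the genes whose log2 CPM followed Reln most closely were Ttc28 (Pearson r = 0.97), Map2k5 (0.94), Ntng2 (0.93), Lef1 (0.93) and Hs3st3b1 (0.93), as a description over 11290 genes ranked. Among the pathway genes, Fyn (r = 0.69, rank 343) and Lrp8 (r = 0.65, rank 480) followed Reln more closely than Dab1 (r = 0.35), Vldlr (-0.09), Crk (-0.11), Crkl (-0.41) or Pafah1b1 (-0.46). These correlations are over the same libraries, whose length slopes differ.

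The wider pathway was described with 68 further genes listed by role, of which 67 passed the filter. In edgeR none of them had an adjusted p under 0.05, against 0.0589% of all tested genes. An unadjusted p under 0.05 was found for 8 higher and 3 lower genes, where 10.5% of all tested genes had one. Of the 67, 42 were higher and 25 lower (49.3% of all tested genes were higher), and the median log2 fold change was 0.04, against -0.00 over all tested genes. DESeq2 called 3 higher (Map1b, Dync1h1 and Map1a) and 1 lower (Pafah1b3), against 2.85% of the genes to which it gave an adjusted p. It gave none to Adamts2, Adamts3, Adamts4, Adamts5, Thbs1, Mylip, Lyn and Dync1i1, so its calls are not out of all 67. Limma-voom called none. With length and GC trends removed the median was 0.01.

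**Figure D4:**
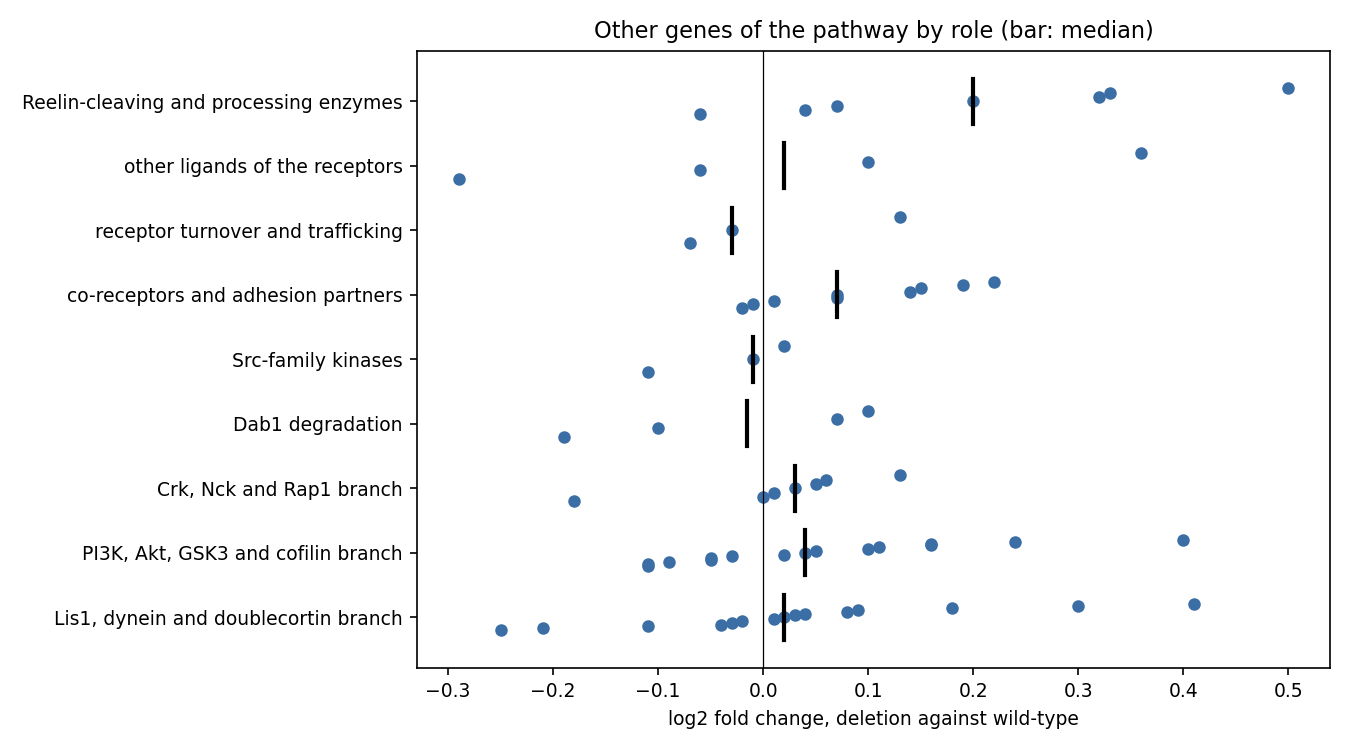
Log2 fold change of deletion against wild-type (horizontal axis) for the other tested genes of the pathway, by role. Each point is a gene and each bar the median of its role. The Reelin-cleaving and processing enzymes have the highest median, 0.20, and the Lis1 and dynein branch reaches from -0.25 to 0.41. Among those enzymes Adamts2 to Adamts5, all of low level, lie at or above the median, and the more abundant Furin, Plat and Bmp1 below it.

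Upstream of the receptors, enzymes that cut Reelin or process secreted proteins had log2 fold changes above 0 for 6 of 7 genes, with a median of 0.20 (0.14 with both trends removed), and none had an unadjusted p under 0.05 in edgeR. Adamts2, a metalloproteinase that cuts Reelin, was low and variable, at 3.40 ± 0.815 and 4.81 ± 2.02 CPM (SD, n = 5 each; log2 fold change 0.50, SE 0.26). Its relative Adamts3 stood at 4.72 ± 1.41 and 5.94 ± 1.14 CPM (0.33, SE 0.20). Adamts4 and Adamts5 were also low, at wild-type means of 3.43 and 6.46 CPM (0.32, SE 0.20, and 0.20, SE 0.15). The more abundant Furin, Plat and Bmp1, at wild-type means of 25.5, 54.1 and 64.4 CPM, had log2 fold changes of 0.07, 0.04 and -0.06. Among other proteins that bind these receptors, Apoe stood at 62.5 ± 9.16 and 50.9 ± 7.20 CPM, with 0 of 5 deletion libraries above the mean of the wild-type group (log2 fold change -0.29, SE 0.10, edgeR adjusted p = 0.275). For Thbs1, which encodes a matrix protein, the value was 0.36 (SE 0.15, edgeR adjusted p = 0.389). Mylip, whose product marks the receptors for degradation, and Snx17, which sorts lipoprotein receptors in endosomes, had log2 fold changes of 0.13 (SE 0.16) and -0.07 (SE 0.07).

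Co-receptors and adhesion partners had log2 fold changes above 0 for 7 of 9 genes, and their median was 0.07, or 0.01 with both trends removed. Nectin1, an adhesion molecule of Cajal-Retzius cells, stood at 71.7 ± 8.36 and 83.3 ± 3.70 CPM (log2 fold change 0.22, SE 0.08, edgeR adjusted p = 0.264). Its deletion libraries ran from 78.3 to 88.4 CPM and its wild-type libraries from 62.4 to 81.2, so the groups overlapped. For Ephb2, a receptor of ephrin-B proteins, it was 0.15 (SE 0.07, edgeR adjusted p = 0.486), or 0.02 with both trends removed.

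Beside Fyn, the kinase genes Src and Yes1 had log2 fold changes of 0.02 (SE 0.06) and -0.11 (SE 0.11). In the machinery that degrades phosphorylated Dab1, Rnf7, the RING subunit of the ligase, stood at 79.9 ± 4.23 and 70.2 ± 3.75 CPM (log2 fold change -0.19, SE 0.07, edgeR adjusted p = 0.268). Its transcript is short, 1.23 kb, and the value was -0.05 with both trends removed. The substrate receptor gene Socs7 had a log2 fold change of 0.10 (SE 0.06). In the Crk branch, Rapgef1, the exchange factor that Crk proteins bring to Rap1, had one of 0.13 (SE 0.07), and Rap1a, the small GTPase it activates, one of -0.18 (SE 0.10).

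The smallest p-values of the wider pathway in edgeR belonged to genes at its cytoskeletal end, although Adamts2 had a larger fold change. Dync1h1, the dynein heavy chain, stood at 458 ± 63.9 and 610 ± 39.0 CPM (SD, n = 5 each), with wild-type libraries from 399 to 559 and deletion libraries from 552 to 654. The log2 fold change of Dync1h1 was 0.41 (SE 0.08, edgeR adjusted p = 0.0565). With length and GC trends removed it was 0.28 and passed edgeR's test (adjusted p = 0.0157), as 1 of 18 genes called in that fit. With the length trend alone removed, 0 genes were called, so Dync1h1 did not pass there. The same held with length and GC removed and the replicate number as a block. The microtubule-binding protein genes Map1b and Map1a had log2 fold changes of 0.40 (SE 0.09, edgeR adjusted p = 0.0757) and 0.30 (SE 0.08, edgeR adjusted p = 0.102), and 0.29 and 0.17 with both trends removed. Their transcripts measure 11.8 kb each and that of Dync1h1 14.3 kb, in the range of Reln. For Mtor, a kinase downstream of Akt, the log2 fold change was 0.24 (SE 0.08, edgeR adjusted p = 0.248). Pafah1b3, which encodes a catalytic partner of Lis1, stood at 207 ± 5.04 and 179 ± 14.4 CPM (log2 fold change -0.21, SE 0.06, edgeR adjusted p = 0.164; -0.11 with both trends removed), and its transcript of 1.11 kb is short.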

How the data were processed

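RNA-seq counts of 10 midbrain libraries were used, grouped by the labels. The authors deposited raw counts per Entrez gene ID; HISAT2 (alignment), featureCounts (counting) and mm39 are named, per the submitters' processing notes. Versions, strandedness, gene annotation and handling of reads with several matches were not given in the sources used here, so overlapping genes cannot be told apart. Symbols came from RefSeq (GRCm38.p6; 30648 of 30935 IDs matched), as did promoter sequences. The longest transcript in GENCODE M21 gave length and GC content for 92.4% of tested genes. No library was a duplicate of another of its group (lowest chi-square per degree of freedom 5.81).

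The main test was edgeR 4.0.16 (R 4.3.3), with filterByExpr, TMM, robust quasi-likelihood, no covariate beside group, and Benjamini-Hochberg adjustment over all genes (threshold 0.05). SE is the log2 fold change divided by the square root of F. Log2 CPM used a prior count of 2. Length and GC trends were removed per library as an offset (splines, 4 degrees of freedom per variable, genes above a mean log2 CPM of 3). P-values set the difference between the groups against the spread between libraries of the same group. The test was run on simulated counts first.

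The members, gene lists and tests were chosen with earlier results of these data known. Genes named were the 8 members, the 2 with the smallest p of each role list, any past the threshold, the 5 most like Reln, and the most abundant or absent markers. Pafah1b3, the rest of the Reelin-cleaving and processing enzymes and a few further markers were added after their values were seen. Alternatives were RLE and upper-quartile scaling, other filters, DESeq2 1.42.0, limma-voom (limma 3.58.1), the replicate number as a block, trend removal and leaving out each library.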

Additional observations from a re-analysis of the deposited data

Results flagged for a closer look

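In 2 of 20 groups of 5 libraries examined (8 genes and 2 ratios in each group), 1 library stood far from the rest by Dixon's test, where chance flags about 1 in 20. Dab1 was 197 CPM in deletion 6, while the other deletion libraries lay between 175 and 179 CPM. Fyn was 214 CPM in wild-type 2, while the other wild-type libraries lay between 189 and 191 CPM. Without deletion 6 the log2 fold change of Dab1 was 0.07, and without wild-type 2 that of Fyn was 0.04.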

How the results depend on the processing

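Reln was higher in the deletion group under all 20 alternatives run, with log2 fold changes from 0.21 to 0.40, and from 0.29 to 0.40 on leaving out a library. Reln was picked for being high in these same libraries, so a positive sign under each alternative is no test of it. With length and GC trends removed, the interval of Reln, -0.01 to 0.43, included 0. None of the 7 other genes passed under any of the 20 alternatives (140 fits, smallest adjusted p = 0.345), and 13 of these fits changed sign, by values of at most 0.03. With the length trend removed Lrp8 was -0.00; with length and GC removed Lrp8 was -0.01, Fyn -0.00 and Crkl -0.01; with the replicate block as well, Lrp8 was -0.01, Fyn -0.01, Crk 0.01 and Crkl -0.02. On leaving out a library, Fyn ran from -0.00 to 0.04, Crk from -0.05 to 0.02 and Pafah1b1 from -0.08 to 0.03. The count of called genes, 9, was 15 with upper-quartile factors, 69 with no filter, 248 with DESeq2, 0 with limma-voom, 0 with the length trend removed, 18 with length and GC removed, and 0 to 357 on leaving out a library (357 without deletion 4, 88 without wild-type 2). Other pathway genes called higher numbered 1 with upper-quartile factors (Dync1h1), 3 with no filter, 3 with DESeq2, 1 with length and GC removed (Dync1h1), and 0 to 4 on leaving out a library (3 without wild-type 2, 4 without deletion 4); called lower, 1 with DESeq2 and 0 to 1 on leaving out a library (without deletion 4). The Vldlr to Lrp8 log2 difference ran from -0.17 to -0.09 on leaving out a library. With the replicate number as a block, alone or with length and GC removed, 0 genes were called and Reln stood at 0.39 and 0.26; same-numbered libraries deviated together little (correlations -0.01, 0.02, -0.06 and 0.05), so the numbers were not taken as pairs. The cause of these changes was not tested.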

Other observations

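Rbfox proteins bind the letters TGCATG in RNA. These letters, searched on the transcript strand only, occurred 5 times in the longest Pafah1b1 transcript (0.583 per kb), 2 times each in those of Reln (0.171 per kb), Vldlr (0.251 per kb) and Crkl (0.397 per kb), and 0 times in those of Dab1 and Crk. The median over tested genes was 0.23 per kb, and 60.2% of their transcripts held at least 1. Introns, where Rbfox proteins mostly act on splicing, were not searched.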
